A study of Mus musculus with 2 samples.

Results

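The semaphorins, their neuropilin and plexin receptors, and the ephrins with their Eph receptors were examined in mouse superficial zone cells cultured with and without retinoic acid. Genes were taken by symbol, as every probe set whose platform annotation names a semaphorin of classes 3 to 7, a plexin, a neuropilin, an ephrin or an Eph receptor. This gave 123 of the 45101 probe sets on the array and 52 of 18193 named genes, here called the guidance genes: 20 semaphorins, 2 neuropilins, 9 plexins, 8 ephrins and 13 Eph receptors. The families were picked because Sema3e and Plxna2 were known to be strongly higher with retinoic acid, so the values below describe the comparison and carry no test.

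Superficial zone cells are the flattened chondrocytes at the surface of articular cartilage. The cells were taken from the joints of femur and tibia of 4-day-old (postnatal) ICR mice and grown in DMEM with 10% FBS. The control group is 1 culture without retinoic acid, and the other group is 1 culture kept for 24 hours with 10 μM retinoic acid, the vitamin A metabolite that activates nuclear retinoic acid receptors. Each culture was read on 1 Affymetrix Mouse Genome 430 2.0 array. Whether the cultures share a cell preparation, and how many animals went into each, is not in the labels. With n = 1 in each group, no difference has a replicate check and no p-value is given, and in RNA from a whole culture fewer cells of a type cannot be told apart from less RNA per cell.

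Semaphorins are secreted or membrane-bound proteins that bind plexins on the receiving cell, where plexin signalling acts on small GTPases and the cytoskeleton and often drives retraction. Most of the secreted class 3 semaphorins bind a neuropilin first, which serves as the ligand-binding co-receptor of an A-type plexin, whereas Sema3e binds plexin D1 directly. Ephrins are membrane-bound ligands of the Eph receptor tyrosine kinases and signal in both directions at cell contacts. In the skeleton both systems are known for guiding nerves and vessels and for signalling between bone cells.

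A signal is the linear MAS5 value of a probe set. Where a gene has several probe sets, the one with the highest mean log2 signal over the arrays stands for it. Low signals carry little information, so each array's median, 26.5 for control and 29.7 for retinoic acid, was used as a floor. A fold is given where both signals exceed their floors. Where just 1 does, the gene has only a bound against the other floor, written "at least". Either kind of gene counts as measured. Of all genes 11884 were measured, and over the 11733 with a ratio or bound the median log2 ratio of retinoic acid over control was 0.011. Probe sets of 1 gene gave log2 ratios with an SD of 0.30 over 4993 genes and 0.31 over 16 guidance genes, which covers measurement scatter in the same RNA only.

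Of the 52 guidance genes 43 were measured, 38 of them on both arrays. The secreted semaphorin genes Sema3e and Sema3a, both neuropilin genes, and the plexin genes Plxna2 and Plxnd1 were higher by 2-fold or more in the retinoic acid culture, and so was the ephrin gene Efna4. On the lower side Sema6d reached 2-fold, while Sema4f, known only from a bound of at least 1.90-fold lower, may or may not reach it. Thus 7 of 43 (16.3%) were at least 2-fold higher, beside 6.54% of all measured genes, and 1 of 43 (2.33%) at least 2-fold lower, beside 4.34%. Plxna2, Sema3e and Nrp2 were at least 4-fold higher, which held for 1.79% of all measured genes. The families were picked on this same contrast, so nothing is read from these shares. The median log2 ratio of the 42 guidance genes with a ratio or bound was 0.31, beside 0.011 over all measured genes, and 28 of the 42 were above 0. With their median this close to 0, all measured genes lay about evenly above and below 0. Counts above or below 0 in the families further on are to be read beside that. Of the 42, 34 kept their sign under each alternative processing that gave a value. For the 38 genes measured on both arrays, a lower floor or none could not change the sign. Without Sema3e and Plxna2, 5 of 41 were at least 2-fold higher and the median was 0.28. Among genes with a fold, nearest to the 2-fold limit, Efna4 lay inside at 2.12-fold and Sema6a just outside at 1.93-fold.

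**Figure D1:**
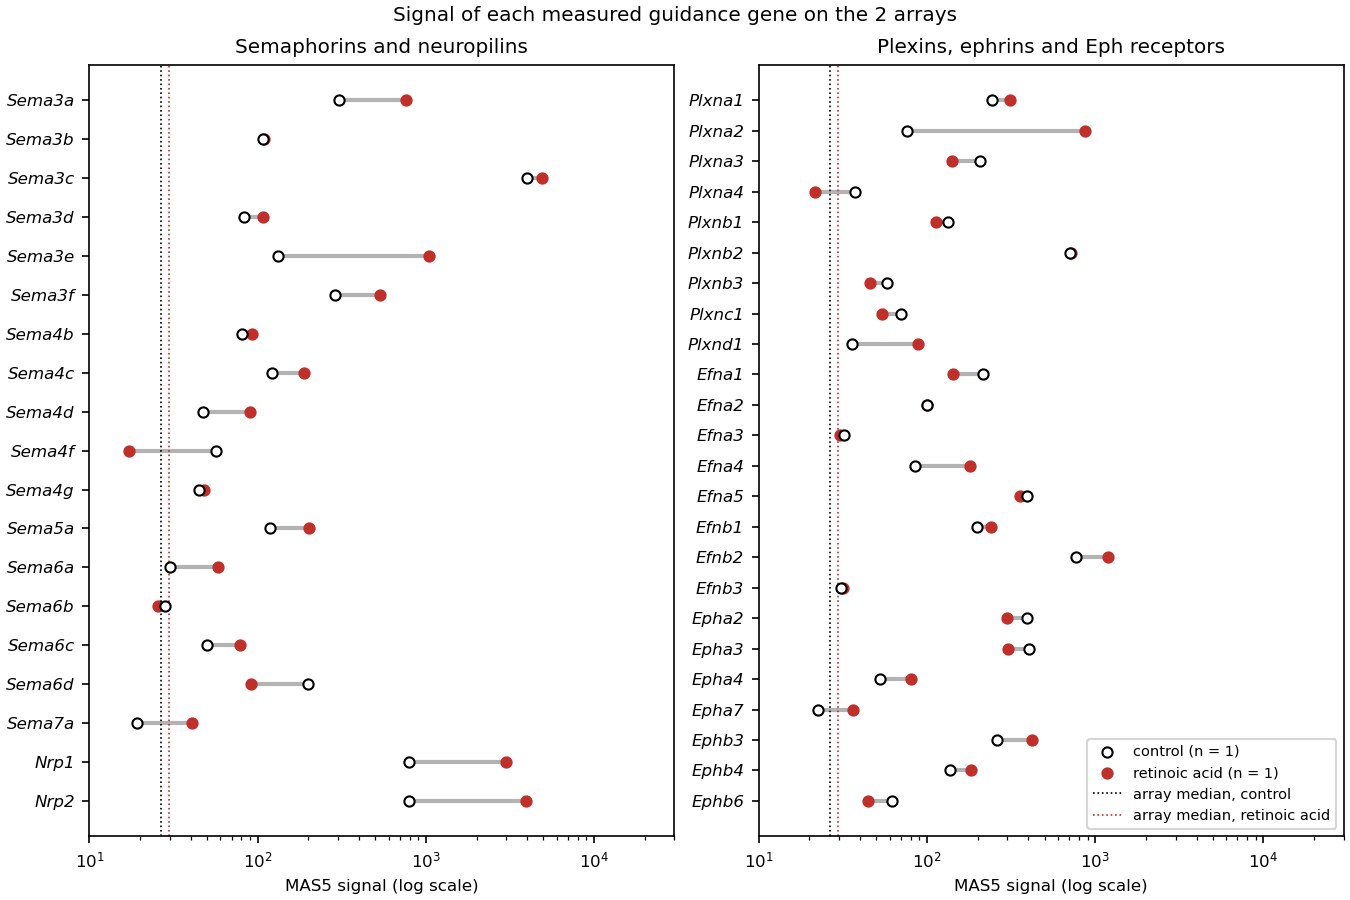
MAS5 signal on a log axis of each of the 43 measured guidance genes in control (open circles) and with retinoic acid (filled circles), 1 array each, with dotted lines at the array medians of 26.5 and 29.7. Plxna2 (76.2 to 869) and Sema3e (133 to 1044) span the widest gaps, and most of the other pairs lie close together.

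The class 3 semaphorins are the secreted ligands of the family, and the 6 measured members all read higher with retinoic acid, but Sema3b by next to nothing and with the same sign in only 5 of 9 alternative processings that gave it a value. Sema3e had a signal of 133 in control and 1044 with retinoic acid, a 7.87-fold difference that ranked 36 from the highest among the 10722 genes above the floor on both arrays; genes with only a bound have no rank. Its 3 dimmer probe sets read 46.2 and 324, 42.9 and 410, and 17.0 and 426 in control and with retinoic acid. All 4 probe sets thus read several times higher with retinoic acid, with log2 ratios from 2.81 to 4.01, the last one a bound.

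Sema3a, the classic repellent for sensory axons, had signals of 306 and 764, a 2.49-fold difference. Its other probe sets gave larger ones, 3.91-fold (224 to 874) and 5.98-fold (49.9 to 298). The direction was the same in all 3, but the size of the Sema3a difference depended on the probe set read.

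Sema3f, a ligand that prefers neuropilin 2, had signals of 290 and 532 and was 1.84-fold higher by a probe set not marked as unique to a transcript, but its other probe sets, at 1.36-fold and 1.37-fold, showed less. Sema3c, a ligand in heart and vessel development, was bright on both arrays (4001 and 4899) and 1.22-fold higher, and its second probe set read 838 and 983. Sema3d, known from vein patterning, was 1.29-fold higher (82.9 to 107). Sema3b read 107 and 109, while a dimmer probe set was at least 1.72-fold lower (51.1 to 19.0), so its direction is not settled. Sema3g was below the floor on both arrays. The median log2 ratio of the 6 measured class 3 genes was 0.62, with 2 of 6 past 2-fold on the higher side and 0 on the lower.

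In the RefSeq gene table for the GRCm38.p6 assembly, 4 of these ligand genes lie near each other on chromosome 5, in the order Sema3d, Sema3a, Sema3e, Sema3c. No other protein-coding gene lies between Sema3d and Sema3a, and 3 lie between Sema3a and Sema3e, none of which was measured. Their log2 ratios along the chromosome were 0.37, 1.32, 2.98 and 0.29, so the genes at either end of the run differed less than the inner pair. Of 15 protein-coding genes between Sema3e and Sema3c 3 were measured, Cacna2d1 at 0.32, Speer4f1 at a bound of 0.52 and Hgf at a bound of −0.031.

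The neuropilins are the co-receptors that bind class 3 semaphorins, and Nrp1 and Nrp2 also bind forms of VEGF. Nrp1 had a signal of 789 in control and 2996 with retinoic acid, 3.80-fold higher. Its other probe sets were 4.41-fold (369 to 1627), 4.18-fold (358 to 1495) and at least 4.49-fold higher (15.1 to 119). The Nrp1 probe sets with a fold thus lay close together, while the dimmest gave only a bound.

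Nrp2 had signals of 797 and 3959, a 4.97-fold difference. Other Nrp2 probe sets were 3.05-fold (836 to 2550), 4.08-fold (478 to 1952) and at least 2.79-fold higher (11.9 to 74.1). Both neuropilin genes were above the median signal in control cells, and every one of their 8 probe sets was more than 2-fold higher in the treated culture.

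Plexins are the signalling receptors, and among them the difference was mostly in 1 gene. Plxna2, which encodes an A-type plexin that pairs with neuropilins and also binds class 6 semaphorins, had signals of 76.2 in control and 869 with retinoic acid. That is 11.4-fold higher, rank 20 among the same 10722 genes. Its other probe sets were 12.9-fold (52.9 to 681), at least 16.6-fold (23.6 to 439) and at least 14.0-fold higher (6.87 to 372). The 4 probe sets were low in control, 2 of them below the array median, and all were well above it with retinoic acid.

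Of the other A-type plexin genes, Plxna1 and Plxna3 were within 2-fold and Plxna4 has only a bound. Plxna1 read 245 and 309 (1.26-fold higher), but its dimmer probe set was at least 1.34-fold lower. Plxna3 read 207 and 140 (1.47-fold lower), and its dimmer probe set was 1.34-fold higher. Neither Plxna1 nor Plxna3 therefore has a settled direction. Plxna4 was above the floor in control alone (37.1 and 21.5) and at least 1.25-fold lower.

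Plxnd1 encodes the direct receptor of Sema3e and has 1 probe set on the array. Its signals of 35.8 and 87.8 gave a 2.46-fold difference, from a control value barely above the floor. When each array's median was added to its signals instead of serving as a floor, the log2 ratio of Plxnd1 was 0.92, short of 2-fold. Of the B-type plexin genes, Plxnb1 was 1.18-fold lower (133 to 112), Plxnb2 1.02-fold higher (703 to 715) and Plxnb3 1.26-fold lower (57.9 to 45.9). Plxnc1, which encodes the receptor of Sema7a, was 1.30-fold lower (69.8 to 53.9). Over the 8 plexin genes other than Plxna2 the median log2 ratio was −0.28, with 5 of 8 below 0. These 8 include Plxna1 and Plxna3, whose probe sets disagree. They also include Plxnb2, close to level, which kept its sign in 8 of 11 alternatives.

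**Figure D2:**
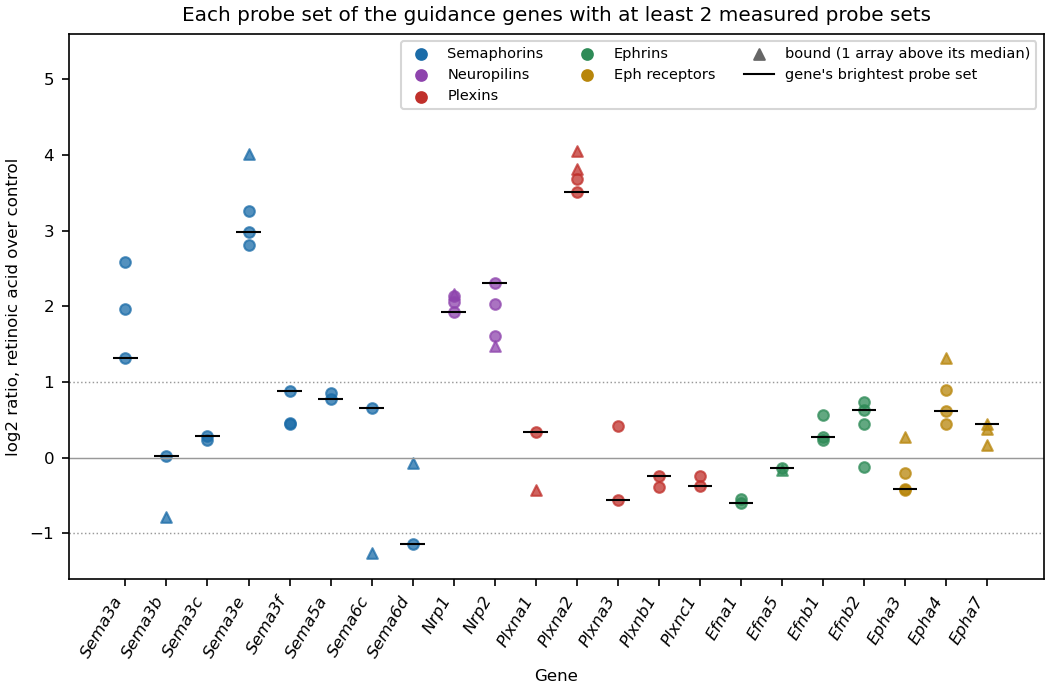
log2 ratio of retinoic acid over control for each probe set of the 22 guidance genes with at least 2 measured probe sets, with circles for ratios, triangles for bounds and a bar at the brightest probe set. All probe sets of Sema3e, Sema3a, Nrp1, Nrp2 and Plxna2 lie above the dotted 2-fold line at 1, whereas those of 6 genes, among them Sema3b, Sema6c and Plxna3, lie on both sides of 0.

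The probe sets repeat the measurement on the same RNA. Of 22 guidance genes with a second measured probe set, 16 had every probe set on the same side of 0, and the exceptions were Sema3b, Sema6c, Plxna1, Plxna3, Efnb2 and Epha3. Among the 8 genes past 2-fold, 6 had a second measured probe set and all 6 had every probe set on the same side. Efna4 and Plxnd1 rest on 1 probe set each.

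Promoter sequences of the ligand and receptor genes with the highest ratios are shown because these genes were higher together. They are the 250 bases before the RefSeq start on GRCm38.p6, from chr5:14025026-14025275 for Sema3e, chr1:194619579-194619828 for Plxna2, chr8:128358823-128359072 for Nrp1 and chr1:62703067-62703316 for Nrp2, all on the plus strand and written 5′ to 3′. Capitals mark the GC box GGGCGG on either strand, a sequence that Sp family factors bind.
Sema3e: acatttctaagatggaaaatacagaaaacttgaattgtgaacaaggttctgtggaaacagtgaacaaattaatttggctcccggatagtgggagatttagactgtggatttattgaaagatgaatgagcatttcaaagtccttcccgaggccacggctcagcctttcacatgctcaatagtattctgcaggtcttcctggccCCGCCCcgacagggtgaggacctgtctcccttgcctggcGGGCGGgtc
Plxna2: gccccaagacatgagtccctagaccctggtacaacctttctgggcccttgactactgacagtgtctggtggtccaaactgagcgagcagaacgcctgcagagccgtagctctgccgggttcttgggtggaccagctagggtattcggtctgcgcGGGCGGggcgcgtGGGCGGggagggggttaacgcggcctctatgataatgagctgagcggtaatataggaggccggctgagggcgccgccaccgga
Nrp1: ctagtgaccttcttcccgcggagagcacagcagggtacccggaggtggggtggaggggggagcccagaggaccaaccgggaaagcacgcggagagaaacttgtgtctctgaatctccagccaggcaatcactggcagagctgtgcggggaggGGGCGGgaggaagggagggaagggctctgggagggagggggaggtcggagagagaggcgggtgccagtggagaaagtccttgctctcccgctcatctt
Nrp2: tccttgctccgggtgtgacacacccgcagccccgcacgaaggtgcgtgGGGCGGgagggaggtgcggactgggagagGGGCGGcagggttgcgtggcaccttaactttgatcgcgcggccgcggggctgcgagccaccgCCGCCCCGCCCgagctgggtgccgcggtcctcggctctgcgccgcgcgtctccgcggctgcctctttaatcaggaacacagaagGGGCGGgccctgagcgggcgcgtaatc
The GC box occurs 2 times in the Sema3e window, 2 times in that of Plxna2, 1 time in that of Nrp1 and 5 times in that of Nrp2, where a pair of them overlaps. The table held windows for 46 of the 52 guidance genes, 60 windows in all, and 46 of these (76.7%) held a GC box, beside 42.6% of 21263 windows of protein-coding genes and 32.7% of all 32851. The box was thus common in the promoters of guidance genes whether or not they differed, and the Sema3a window held none.

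The half-site of nuclear retinoic acid receptors was searched in the same windows on both strands as AGGTCA. Its variant GGGTCA also counted as a half-site, and so did the variant AGTTCA and likewise the variant spelled GGTTCA. Among the 7 genes at least 2-fold higher, Nrp1 and Plxnd1 held a half-site, and 28.3% of the 60 guidance windows did, beside 36.5% of protein-coding windows and 38.6% of all. In Nrp1 it is AGGTCA on the minus strand, and its outermost base lies 246 bases before the start. Direct repeats of the half-site with spacings of 1, 2 or 5 bases were found in 0 of the 60 windows and in 0.164%, 0.174% and 0.0883% of all windows. These are letters in a short window and say nothing about binding elsewhere.

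Of the membrane-bound semaphorins with a fold, all but Sema6d were within 2-fold. Sema4f and Sema7a have only a bound. The class 6 members are transmembrane ligands of A-type plexins. Sema6d had signals of 200 in control and 90.8 with retinoic acid, 2.20-fold lower. A dimmer probe set of Sema6d was above the floor in control alone and gave a bound of only 1.05-fold, so the size rests on 1 probe set. Sema6c read 49.7 and 78.3 (1.58-fold higher), but another of its probe sets was at least 2.38-fold lower (70.8 to 14.1), and its direction is not settled. Sema6a was 1.93-fold higher from a control signal just above the floor (29.98 to 57.8). Sema6b, at 28.2 and 25.4, has no fold because it was barely above the control floor.

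Among class 4 genes, Sema4d, whose product binds plexin B1 and is known as a coupling signal of bone cells, was 1.90-fold higher (47.5 to 90.1). Sema4c, a ligand of plexin B2, was 1.54-fold higher (122 to 188), Sema4b 1.14-fold (80.7 to 92.3) and Sema4g 1.07-fold (44.5 to 47.8). Sema4f was at least 1.90-fold lower (56.5 to 17.1), and its log2 ratio was −1.72 with a floor at the 30th percentile. That value rests on 1 probe set whose name does not mark it as unique to a transcript, and the other Sema4f probe set was below the floor on both arrays, as was Sema4a. Sema5a, a transmembrane semaphorin with thrombospondin repeats, was 1.70-fold higher (118 to 201), and its second measured probe set also read higher (112 to 203). Sema7a, a lipid-anchored semaphorin, was at least 1.55-fold higher (19.3 to 41.0), with a log2 ratio of 1.09 at the lower floor, and Sema5b was below the floor. Of the 10 genes of classes 4 to 7 with a ratio or bound, 8 were above 0, and the median log2 ratio of the 10 was 0.62. However, 0 of them had a fold or bound of 2 or more on the higher side. Among those above 0, Sema4g kept its sign in 8 of 10 alternatives and Sema6c, whose probe sets disagree, in 8 of 9.

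**Figure D3:**
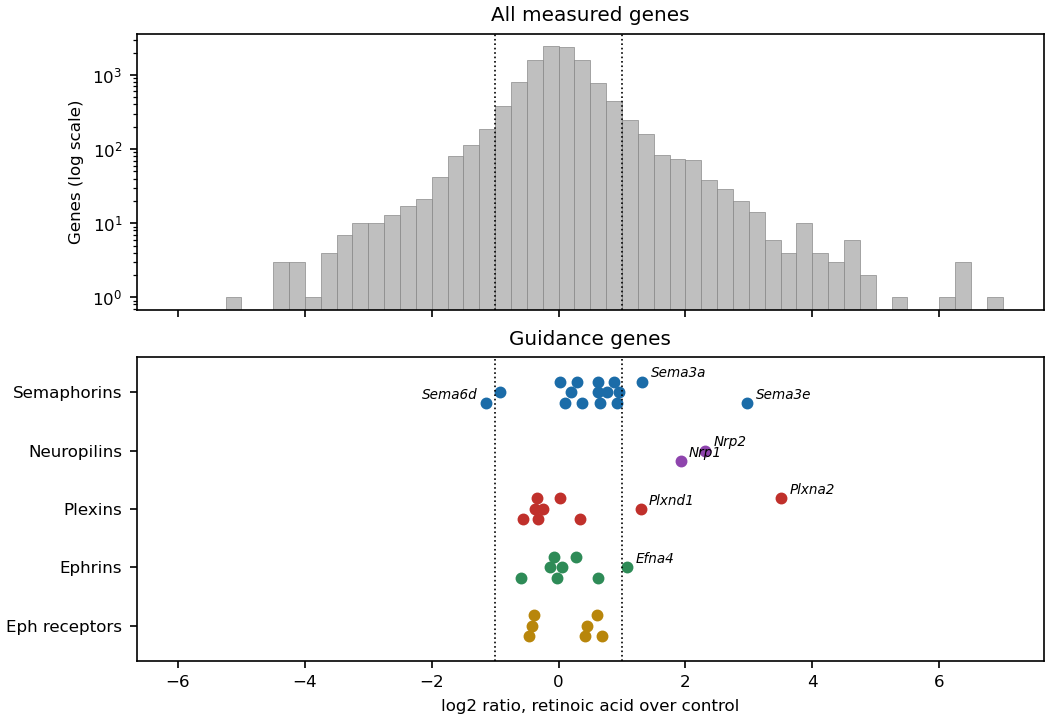
log2 ratio of retinoic acid over control for all measured genes (upper panel, number of genes on a log axis) and for the 42 guidance genes with a ratio or bound, by family (lower panel), with dotted lines at 2-fold. Genes past 2-fold are named; the Eph receptors all lie between −0.46 and 0.69.

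The ephrin and Eph families differed little. Ephrin-A proteins are lipid-anchored and bind mainly EphA receptors. Efna4 was 2.12-fold higher (85.3 to 181), from 1 probe set whose name does not mark it as unique to a transcript. Efna1 was 1.51-fold lower (216 to 143), and its second probe set was lower as well (105 to 72.4). Efna5 read 390 and 355, Efna2 101 and 99.3, and Efna3 32.0 and 30.6, so these ephrin-A genes were nearly level.

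All 3 ephrin-B genes, whose products span the membrane, were measured. Efnb2, the ephrin of arteries, was 1.55-fold higher (769 to 1190). Of its other probe sets 2 were 1.66-fold (370 to 615) and 1.36-fold higher (77.3 to 105), and the dimmest was 1.09-fold lower (47.6 to 43.8). Efnb1, in which loss of function gives craniofacial malformation, was 1.21-fold higher (198 to 239), with both other probe sets also higher. Efnb3 read 30.6 and 31.8. The median log2 ratio was 0.27 for ephrin-B and −0.066 for ephrin-A genes.

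Of 13 Eph receptor genes 7 were measured. By the probe set that stands for each gene, the 6 with a fold were within 2-fold, and Epha7 has only a bound. Ephb3 was 1.61-fold higher (259 to 418) and Ephb4, the partner of Efnb2 at the border of arteries and veins, 1.33-fold higher (138 to 183). Epha4 was 1.53-fold higher (52.5 to 80.2) with all 4 measured probe sets on that side. Its others were 1.86-fold (34.4 to 64.1), 1.36-fold (30.5 to 41.4) and at least 2.48-fold higher (22.2 to 65.8). The size of the Epha4 difference thus depended on the probe set read. Epha7 was at least 1.36-fold higher (22.4 to 36.1). Epha3 was 1.33-fold lower (406 to 305), with a dim probe set at least 1.21-fold higher. Epha2 was 1.31-fold lower (392 to 300), and Ephb6, which lacks kinase activity, 1.38-fold lower (61.8 to 44.8). Epha1, Epha5, Epha6, Epha8, Epha10 and Ephb1 were below the floor on both arrays. Over the 15 measured ephrin and Eph genes the median log2 ratio was 0.052. It was 0.37 over the 27 semaphorin, plexin and neuropilin genes with a ratio or bound. The 27 include Sema3e and Plxna2, for which the families were picked. The families within each pool differed. The median was 0.41 over the 7 measured Eph receptors and 0.017 over the 8 ephrins. It was 0.62 over the 16 semaphorins with a ratio or bound, 2.12 over the 2 neuropilins and −0.24 over the 9 plexins.

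Genes that act with these receptors were read from fixed lists. Among all measured genes, 6.54% passed 2-fold on the higher side and 4.34% on the lower side. Counts from these lists and from the marker lists further below are to be read beside those shares. No list was tested against them. In semaphorin and plexin signal transduction 35 genes were measured. The median of their log2 ratios was 0.054; past 2-fold, 5 were higher and 1 lower. Dpysl3, which encodes a collapsin response mediator protein of the Sema3a pathway, was 4.88-fold higher (197 to 960). Mical3, of the redox enzymes that act on actin, was 2.75-fold higher (69.1 to 190), Dpysl4 2.08-fold (41.9 to 87.2), Plxdc2, a plexin domain gene, 2.05-fold (888 to 1821) and the GTPase gene Rnd2 2.04-fold (151 to 308). Tiam1, a Rac activator on both signalling lists, was 4.32-fold lower (134 to 31.0).

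Of 14 measured co-receptors and partners, the adhesion gene Nrcam was 2.63-fold higher (127 to 333) and Met, the receptor kinase that associates with B plexins, 2.27-fold higher (151 to 343). Chl1, an adhesion molecule that associates with neuropilin 1, was at least 4.77-fold lower (142 to 13.5). Their median log2 ratio was 0.21. In ephrin and Eph signal transduction 32 genes were measured with a median of 0.060, and past 2-fold 2 were higher and 3 lower. Itsn1 was 2.03-fold (350 to 709) and Vav3 at least 2.05-fold higher (26.3 to 54.3). Besides Tiam1, the exchange factor genes Kalrn (95.9 to 41.3) and Ngef (62.0 to 27.0) were 2.32-fold and at least 2.09-fold lower. Of 17 measured genes on the list of shedding and processing, Adam10, a sheddase of ephrins, was 2.11-fold higher (1183 to 2497), Mmp14 2.26-fold (2905 to 6574) and Mmp9 at least 5.15-fold (20.0 to 136), with none lower by 2-fold and a median of 0.0020.

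Markers of the cells and of the treatment were read on the same arrays. All 20 superficial zone and chondrocyte markers were measured, with Prg4, which encodes lubricin, at 1920 and 1148 and Col2a1 at 9538 and 7366. Of the 20 markers 8 were at least 2-fold lower with retinoic acid. The widest gaps were those of Acan (32.3-fold lower, 5066 to 157), Sox9 (10.8-fold, 1024 to 94.8), Hapln1 (9.37-fold), Snorc (9.06-fold) and Matn3 (7.99-fold), and the summed signal of all 20, in which bright collagen genes weigh most, was 0.561 times that of control. Of the 7 retinoic acid targets named on the array 6 were at least 2-fold higher and Stra6 was not measured.

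Neuropilins, Plxnd1, Efnb2 and Ephb4 are also genes of vessels and nerves, so markers of other cell types were read beside them. Of 14 endothelial markers 4 were measured and 10, among them Pecam1, Cdh5, Tek and Vwf, did not exceed either floor. The summed signal of all 14, with those below the floors included, was 238 in control and 313 with retinoic acid. Cldn5 alone was at least 2-fold higher (22.7 to 108, at least 4.08-fold), and its gap exceeded that of the sum. Of 10 Schwann and neural markers named on the array 3 were measured, and the signals of all 10 summed to 163 and 191. Of 10 myeloid markers 6 were measured, and the signals of all 10 summed to 537 and 660. Mrc1 was at least 3.45-fold higher (19.9 to 91.5) while Ptprc was below the floor. The signals of all 10 smooth muscle and pericyte markers summed to 7910 and 12298. Of the 9 measured, 3 were at least 2-fold higher (Rgs5, Myl9 and Mylk) and 2 lower (Cspg4, 9.30-fold, and Des, 2.27-fold). The part of such cells in the guidance gene values was not tested.

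**Figure D4:**
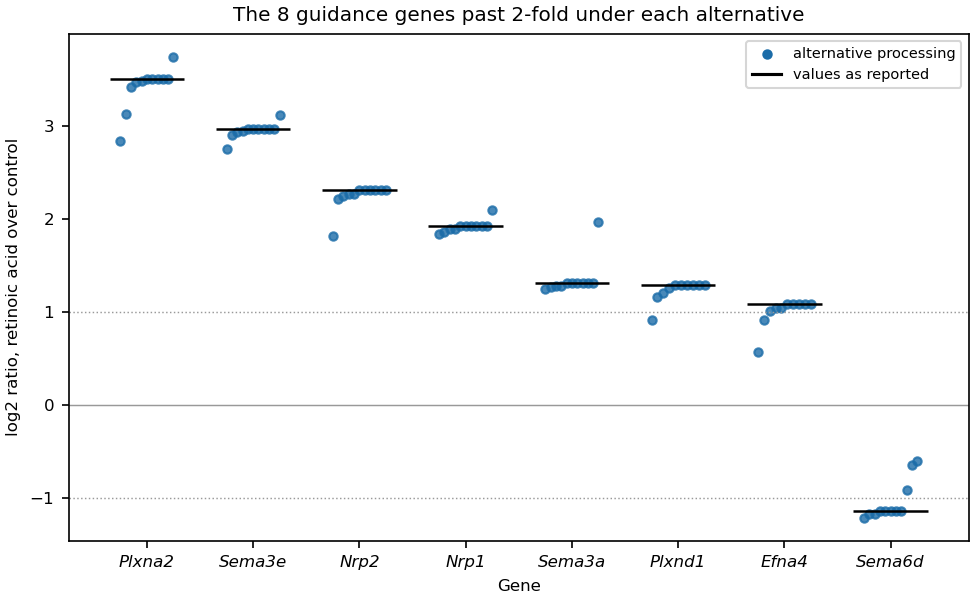
log2 ratio of retinoic acid over control of the 8 guidance genes past 2-fold, as reported (bars) and under each alternative processing that gave a value (points). The points of Plxna2, Sema3e, Nrp2, Nrp1 and Sema3a stay above the dotted line at 1, while some of those of Plxnd1, Efna4 and Sema6d lie within 2-fold.

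Under 11 alternatives for the floor, the scaling and the choice of probe set, Plxna2 ranged from 2.84 to 3.75 on the log2 scale, Sema3e from 2.75 to 3.12, Nrp2 from 1.82 to 2.31, Nrp1 from 1.84 to 2.10 and Sema3a from 1.25 to 1.97. These 5 genes passed 2-fold under each alternative. For Sema3e, Nrp2, Nrp1 and Sema3a the other floors could not change the value, because both signals lay above them. Efna4 ranged from 0.58 to 1.09, Plxnd1 from 0.92 to 1.30 and Sema6d from −1.21 to −0.60, and each was within 2-fold under at least 1 of them.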

How the data were processed

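Total RNA (100 ng) of 1 control and 1 retinoic acid culture was labelled as biotinylated cRNA and hybridised to 1 array each, per the labels' protocols. The deposited values are intensities, linear MAS5 signals per probe set (range 0.020 to 13926); MAS5 is named in the submitters' processing notes, and which version, scaling target and detection calls it used is not given in the sources used here. The trimmed mean signals were 182 and 192, and values were used as deposited. Groups came from the treatment in the labels.

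Probe sets were named through the platform annotation: of 45037 non-control probe sets 34945 had 1 gene symbol and were used, 932 had several and 9160 none. All 52 guidance genes matched the RefSeq table by Entrez identifier, and 0 symbols changed. The floor was each array's median, and log2 ratios run from control to retinoic acid; 151 measured genes barely above 1 floor have no ratio. With 1 array per group no test was run. The members, gene lists and settings were chosen with earlier results of these data known. Every guidance gene above a floor is named with both signals, and of the pathway lists the genes past 2-fold. The counting step was tested on simulated data with changes placed only in genes bright on both arrays. That test therefore did not cover the counting of changes at low signals. Alternatives were other floors (30th or 70th percentile, or none), an offset, a common floor, genes above both floors, 3 scalings (median ratio of 0, quantile, loess with span 0.3), the median over probe sets, and unique probe sets. Promoter sequences are RefSeq's, on GRCm38.p6. The software was Python 3.11.15 with pandas 2.3.3, numpy 2.4.6, statsmodels 0.14.6, scipy 1.17.1 and, for figures, matplotlib 3.10.9.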

Additional observations from a re-analysis of the deposited data

How the results depend on the processing

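The number of guidance genes at least 2-fold higher, 7, lay between 5 and 8 under the 11 alternatives. With no floor it was 8 of 52 (15.4%), beside 11.7% of all genes, so the 2 shares lay much closer. The shares were 16.3% beside 7.28% with the floor at the 30th percentile and 21.7% beside 5.32% at the 70th. With the offset they were 11.6% beside 5.55%. Under the others the guidance share was 16.3% to 18.4%, beside 5.69% to 6.63%. The number at least 2-fold lower, 1 (Sema6d), was 2 in 3 settings, where Sema4f joined Sema6d. These were a floor at the 30th percentile (4.08%, beside 5.5% of all genes), quantile normalization (4.65%, beside 5.15%) and loess (4.65%, beside 4.84%). With no floor it was 5 of 52 (9.62%), beside 11.6%. It was 0 with a floor at the 70th percentile, with the offset and with the median over probe sets, beside 3.08%, 2.99% and 4.08% of all genes. The median log2 ratio of 0.31 was 0.41 with the floor at the 70th percentile, which left 23 genes measured, 0.24 with no floor, 0.22 after quantile normalization, 0.25 after loess, 0.23 with the median over probe sets and 0.37 with unique probe sets, and moved less under the others. Of 42 genes 34 kept their sign under each alternative that gave a value; the other 8 were Efna2, Efna3, Efnb3, Plxna1, Plxnb2, Sema3b, Sema4g and Sema6c, all within 2-fold. No gene past 2-fold changed sign. For the 38 genes above the floor on both arrays, 3 alternatives could not change the ratio. These were the floor at the 30th percentile, no floor and the restriction to genes above both floors. No paired analysis was possible because each group is 1 array. The number of arrays and signals near the floor limit what can be read: 20 of the 43 measured genes had a control signal below 100.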
